A study of Mus musculus with 12 samples.

Results

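The acetylcholine receptor of skeletal muscle and the proteins that build and clear the neuromuscular junction were followed through 10 genes, chosen by name: the receptor subunit genes Chrna1, Chrnb1, Chrnd, Chrne and Chrng, the organizer genes Musk and Dok7, and the acetylcholinesterase genes Ache, Colq and Prima1. All 10 were found among the 54532 genes of the deposited table, and 9 of them, all but Chrng, were among the 12754 genes with a mean of at least 0.5 FPKM (fragments scaled for gene length and for sequencing depth) that were tested. The tissue was gastrocnemius, a calf muscle, and the animals were female mice of the immunodeficient ICR SCID strain; no age is given. NTV mice had no tumour and were given vehicle, as the group tag and the series text state; the cell line tag of these samples nevertheless reads HT1080. TV mice were given vehicle and bore HT1080 tumours, grown from a human fibrosarcoma cell line, under the skin. TL mice carried the same kind of tumour and were given selpercatinib, an inhibitor of the RET kinase, at 30 mg/kg by gavage once a day for 19 days. Each group had 4 libraries, described as biological replicates, and they are named here by the numbers in their titles. The whole muscle was sequenced, so nuclei under the junction and the far more numerous nuclei along the fibre are read together.

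The motor nerve releases acetylcholine, which opens a receptor channel built of alpha, beta and delta subunits with a gamma subunit in the fetus and an epsilon subunit in the adult. Agrin from the nerve binds LRP4 and thereby activates the receptor tyrosine kinase MuSK, which with the adaptor DOK7 and the scaffold rapsyn gathers receptors under the nerve ending. Acetylcholinesterase clears the transmitter; the collagen-like tail ColQ ties it to the synaptic basal lamina, and the protein PRiMA ties it to cell membranes. When muscle loses its nerve, transcription of receptor subunit genes, gamma included, typically rises along the fibre together with that of the myogenic factor myogenin.

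Promoter sequences are shown for 4 genes because they cover the members that passed the test (Chrnb1 and Prima1), the receptor gene with the largest change among those that did not (Chrna1), and the adult subunit gene used for comparison (Chrne). They are RefSeq windows of build GRCm38.p6, running 5′ to 3′ from 250 bases before the annotated transcription start to 50 bases from it. Capitals mark the E-box CANNTG, the core that myogenic factors bind and which reads alike on both strands, and the N-box CCGGAA or its reverse TTCCGG, a core bound by GABP in synaptic nuclei; E-boxes of the letters CAGCTG are counted within CANNTG as well.
Chrnb1, chr11:69795888-69796187, minus strand: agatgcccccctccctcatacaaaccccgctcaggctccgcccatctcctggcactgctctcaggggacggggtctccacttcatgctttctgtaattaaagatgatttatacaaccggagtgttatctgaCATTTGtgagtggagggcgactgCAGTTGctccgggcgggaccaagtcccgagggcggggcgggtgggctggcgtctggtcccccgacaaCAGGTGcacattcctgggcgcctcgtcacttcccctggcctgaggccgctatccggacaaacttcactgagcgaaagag
Prima1, chr12:103242097-103242396, minus strand: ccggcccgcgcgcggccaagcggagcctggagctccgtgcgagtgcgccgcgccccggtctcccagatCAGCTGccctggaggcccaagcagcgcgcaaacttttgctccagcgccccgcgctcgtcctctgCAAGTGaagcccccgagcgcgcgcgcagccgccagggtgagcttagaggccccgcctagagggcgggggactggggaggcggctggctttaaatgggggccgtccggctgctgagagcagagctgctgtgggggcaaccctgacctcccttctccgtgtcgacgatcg
Chrna1, chr2:73580289-73580588, minus strand: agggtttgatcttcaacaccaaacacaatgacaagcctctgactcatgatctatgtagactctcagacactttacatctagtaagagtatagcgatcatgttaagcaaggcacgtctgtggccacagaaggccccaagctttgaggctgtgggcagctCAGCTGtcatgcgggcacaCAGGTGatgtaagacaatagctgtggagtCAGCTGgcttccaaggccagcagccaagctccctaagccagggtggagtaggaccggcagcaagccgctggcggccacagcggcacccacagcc
Chrne, chr11:70619145-70619444, minus strand: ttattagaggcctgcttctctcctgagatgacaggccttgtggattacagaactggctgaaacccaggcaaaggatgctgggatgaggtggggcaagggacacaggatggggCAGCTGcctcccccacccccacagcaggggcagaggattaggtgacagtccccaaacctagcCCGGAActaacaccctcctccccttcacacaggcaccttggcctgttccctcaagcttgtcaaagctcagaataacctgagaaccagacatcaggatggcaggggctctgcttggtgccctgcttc

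A window was found for 8 of the 10 members, with 2 windows for Dok7, so 9 windows were searched; Chrnd and Colq had none. CANNTG occurred in 8 of 9 windows, against 72.3% of 32851 promoter windows of the same length. CAGCTG occurred in 5 of 9, those of Chrna1, Chrne, Chrng, Musk and Prima1, against 16.3%. The Chrna1 window held 2 copies, starting at positions -92 and -44 from the transcription start, with CAGGTG between them. The Chrnb1 window held 3 E-boxes and no CAGCTG. The N-box occurred in 1 of 9 windows, that of Chrne at position -76, against 14.9% of all windows. A match describes letters in a window and not a bound site.

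**Figure D1:**
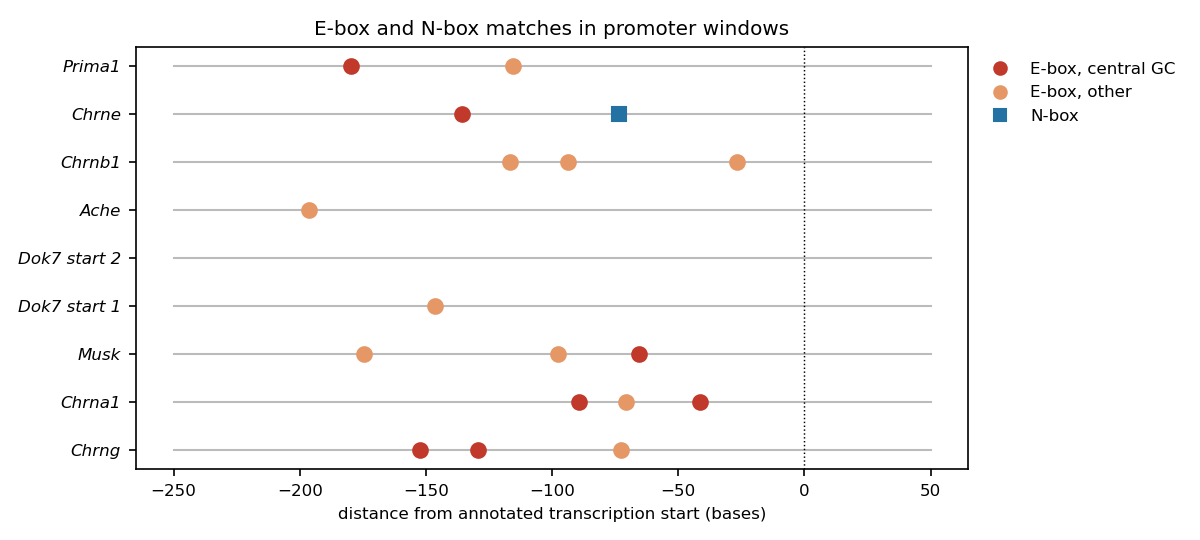
Positions of E-box (circles, dark red for CAGCTG) and N-box (squares) matches in the 9 promoter windows, in bases from the annotated transcription start. The Chrna1 and Chrng windows each hold 2 CAGCTG boxes, and the N-box stands in the Chrne window.

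The libraries held between 14939830 and 23580603 gene reads each. The fibre genes Acta1, Ckm and Myh4 were abundant in all 12 libraries, the lowest value being 3745 FPKM for Ckm. Of 7 fibre markers, limma called 1 higher and 1 lower in TV against NTV, where 25.2% of all tested genes were called. Des rose from 798 to 1752 FPKM (log2 change 1.13 ± 0.17, SE, adjusted p = 0.00156). Mb fell from 2047 to 668 FPKM (-1.62 ± 0.40, adjusted p = 0.0134). No fibre marker was called in TL against TV or in TL against NTV, where 0.517% and 8.81% of all tested genes were called. In TL against NTV the groups of 3 of 7 markers did not overlap (20.8% of all tested genes). There Des was higher (0.56 ± 0.17, limma, adjusted p = 0.0601). Mb (-1.23 ± 0.40, adjusted p = 0.0752) and Acta1 (-0.56 ± 0.31, adjusted p = 0.27) were lower. Mitochondrial reads made up 11.6 to 13.5% of reads in NTV, 5.08 to 7.7% in TV and 6.04 to 13.9% in TL. TL replicates 1 and 5 stood apart on principal component 2 (12.8% of variance) at -31.9 and -32.6. These libraries and NTV replicate 5 held the brown fat gene Ucp1 above 2 FPKM (58.3, 3.97 and 53.4 FPKM). On component 1 (34.5% of variance) NTV lay from -36.7 to -25.6 and TV from 14.2 to 39.1. TL replicates 1, 4, 5 and 7 lay at -0.56, 27.6, -10.4 and 9.67 on it. Of 7 markers of motor axons, Chat, Slc18a3 and Slc5a7 had no read in any library, and Prph was read in all 12, at 0.11 to 0.74 FPKM on 4 to 30 reads; the summed level was 0.25 to 0.83 FPKM in NTV, 0.21 to 0.57 in TV and 0.25 to 0.54 in TL.

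Of the 9 tested members, limma called 2 in TV against NTV at an adjusted p under 0.05, both higher (Chrnb1 and Prima1), where 25.2% of all tested genes were called and 13.8% were called as higher. There 5 members had an unadjusted p under 0.05 (39.1% of all tested genes), and 2 members, Chrna1 and Chrnb1, had groups that did not overlap (27.1%). In TL against TV limma called 0 of 9, where 0.517% of all tested genes were called and 0.235% were called as higher; voom on recovered reads called 1, Prima1. There 2 members, Prima1 and Dok7, had an unadjusted p under 0.05 (16.1% of all tested genes), and for 1, Prima1, the groups did not overlap (7.42%). In TL against NTV limma called 2 of 9, again Chrnb1 and Prima1 and both higher, where 8.81% of all tested genes were called and 4.19% were called as higher. There 4 members had an unadjusted p under 0.05 (27.5%), and the groups of Chrnb1 and Prima1 did not overlap (20.8%). The median log2 change of the tested members was 0.052, 0.099 and 0.27 in these comparisons, beside 0.015, -0.0031 and 0.022 over all tested genes. TV is shared by the first and the second comparison and NTV by the first and the third, so their values are not independent.

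**Figure D2:**
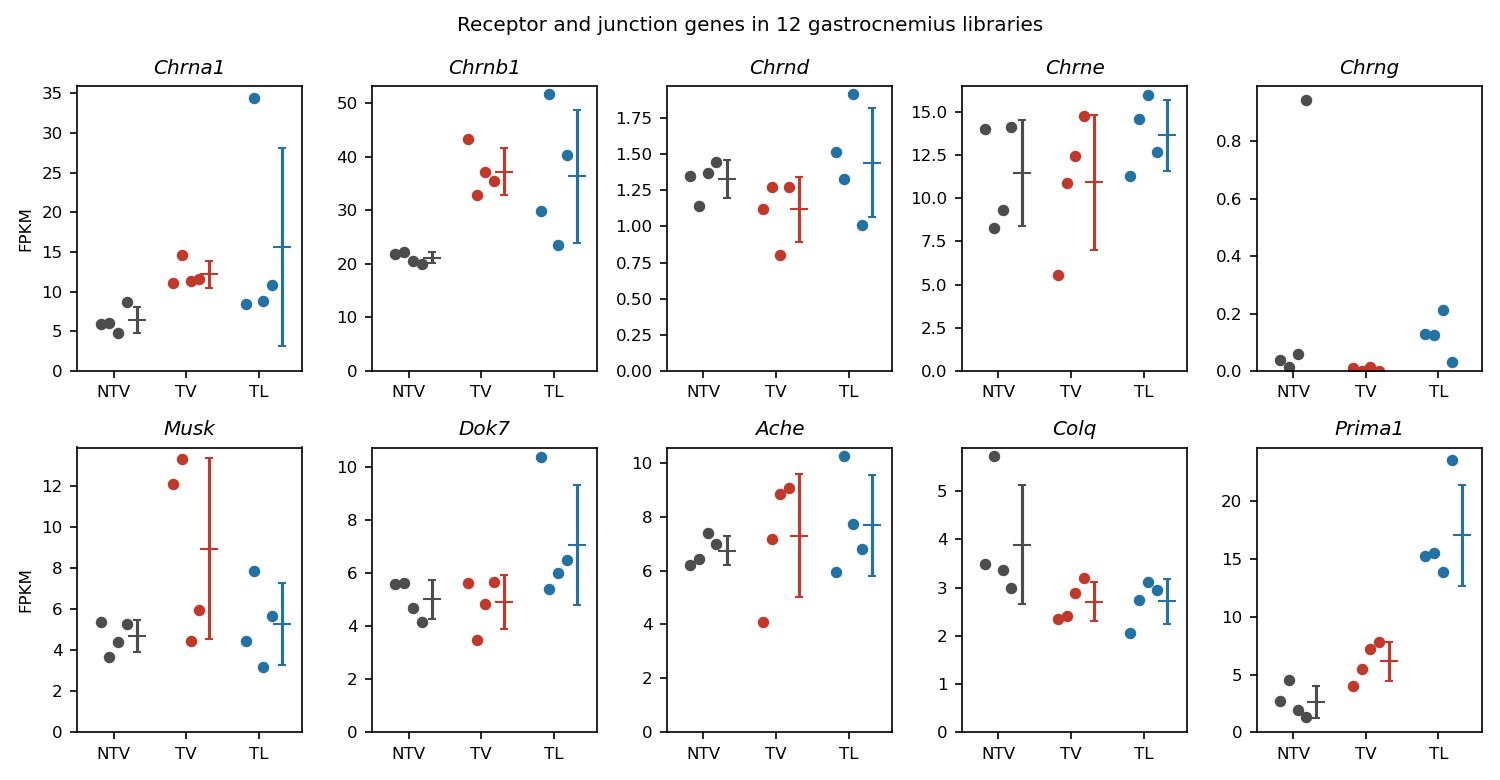
FPKM of the 10 members in each library, with the mean and SD (n = 4) beside each group except for Chrng, whose values are near 0; within a group the points run from the lowest replicate number to the highest. Chrnb1 is higher in all TV and TL libraries than in any NTV library, and Prima1 is higher in all TL libraries than in any other.

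**Figure D3:**
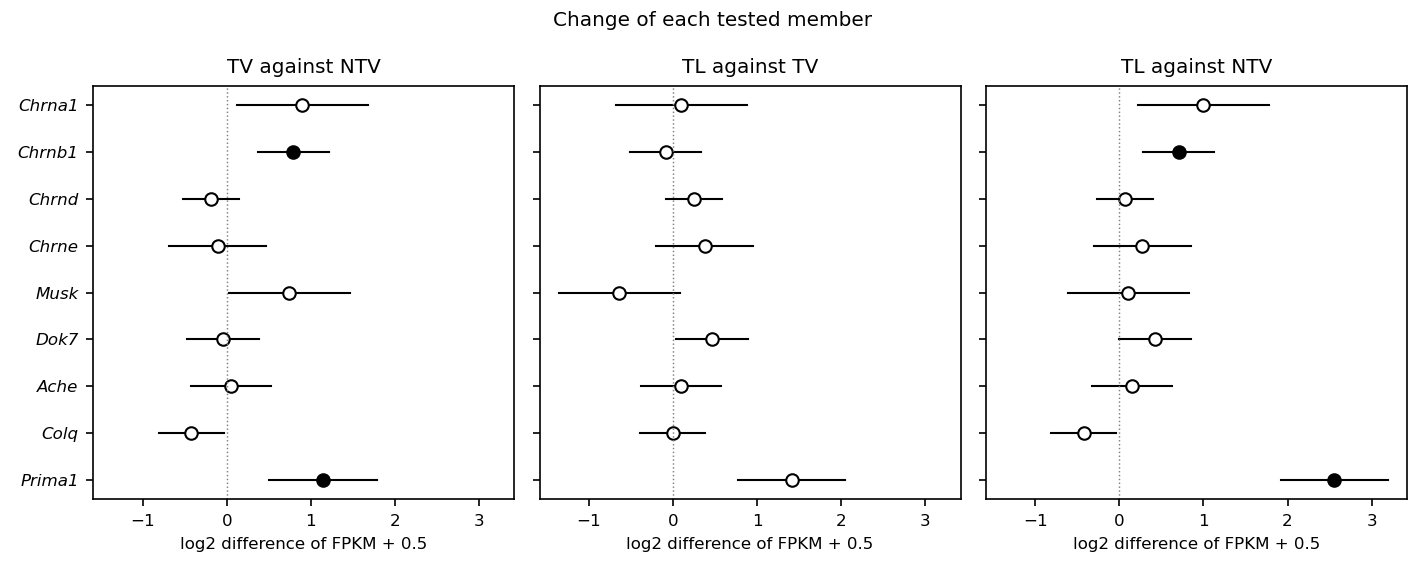
log2 difference of FPKM + 0.5 for the 9 tested members with its 95% confidence interval from limma; filled points passed an adjusted p of 0.05. The filled points are Chrnb1 and Prima1 in both comparisons with NTV, and no point is filled in TL against TV.

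Among the receptor subunits, the beta subunit gene had the highest level in every library and the gamma gene the lowest. FPKM divides by 1 fixed length per gene, such as 4386 bases for Chrna1 and 1690 for Chrne. The order of genes by FPKM therefore depends on these lengths. By reads, Chrna1 stood above Chrne in every library (1999 against 1391 reads in NTV as a whole). The order Chrnb1, Chrne, Chrna1, Chrnd, Chrng held in 9 of 12 libraries, and in the other 3, TV replicates 3 and 4 and TL replicate 4, Chrna1 stood above Chrne. Averaged over all libraries, Chrnb1 stood at 31.6 FPKM, at percentile 90.6 of the tested genes, and Chrnd at 1.3 FPKM, at percentile 20.8. The neighbours Chrne and Chrna1 (12 and 11.4 FPKM) overlapped in their spread.

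Chrnb1 (ENSMUSG00000041189, mm10 chromosome 11, 69784036 to 69795943, minus strand) encodes the beta subunit, which every muscle receptor carries. In NTV replicates 2, 3, 5 and 6 it stood at 21.9, 22.3, 20.5 and 19.9 FPKM. In TV replicates 3, 4, 6 and 8 it stood at 43.3, 32.9, 37.1 and 35.5 FPKM. In TL replicates 1, 4, 5 and 7 it stood at 29.8, 51.6, 23.5 and 40.4 FPKM. NTV was narrow and lay below every library of the other groups, while TL spread over the whole range from just above NTV to above TV. Chrnb1 rose from 21.2 ± 1.1 FPKM (SD, n = 4) in NTV to 37.2 ± 4.4 in TV, a log2 change of 0.79 ± 0.20 (SE, limma, adjusted p = 0.0133). In TL, at 36.3 ± 12.3 FPKM, it was higher than in NTV by 0.70 ± 0.20 (adjusted p = 0.0453). Leaving out a single library took this call away for each of the 4 NTV libraries, for TV replicates 4, 6 and 8 and for TL replicates 1, 4 and 7 (adjusted p up to 0.112). It also ended with no filter on low values (0.0886), with libraries scaled to an equal total (0.0675), with only TL and NTV in the fit (0.0684) and without NTV replicate 6 and TL replicate 4 (0.199). TL and TV differed by -0.089 with a 95% interval from -0.51 to 0.34.

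Chrna1 (ENSMUSG00000027107, chromosome 2, 73563215 to 73580338, minus strand) encodes the alpha subunit, which carries the acetylcholine binding site. Its 4 NTV libraries stood at 5.93, 6.09, 4.82 and 8.7 FPKM. Its 4 TV libraries stood at 11.1, 14.6, 11.4 and 11.5 FPKM. Its TL libraries stood at 8.45, 34.4, 8.82 and 10.9 FPKM, in the order of replicates 1, 4, 5 and 7. The TV and NTV values did not overlap, as for 27.1% of all tested genes, and in TL replicate 4 the level was above that of any other library. The change in TV against NTV was 0.90 ± 0.36 and did not pass the test (adjusted p = 0.0846), with 1 spread per gene taken over all 3 groups. Without TL replicate 4 the same estimate of 0.90 passed (adjusted p = 0.00313), and it did so with only TV and NTV in the fit (0.00753) and without NTV replicate 6 and TL replicate 4 (0.00272; range over all alternatives 0.00272 to 0.379). In TL against NTV the change was 0.999 ± 0.36 (adjusted p = 0.0987) and fell to 0.54 without TL replicate 4; it passed at 1.56 without TL replicates 1 and 5 (0.0288) and at 0.69 without NTV replicate 6 and TL replicate 4 (0.0484). TL and TV differed by 0.099 with all libraries and by -0.36 without TL replicate 4.

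Chrne (ENSMUSG00000014609, chromosome 11, 70614883 to 70619216, minus strand) encodes the adult epsilon subunit, whose transcription is restricted to synaptic nuclei. It stood at 14.0, 8.29, 9.32 and 14.1 FPKM in the NTV libraries, at 5.56, 10.9, 12.4 and 14.8 in the TV libraries and at 11.3, 14.6, 16.0 and 12.6 in the TL libraries. The 3 groups overlapped. The difference was -0.11 in TV against NTV (95% interval -0.68 to 0.47) and 0.38 in TL against TV (-0.20 to 0.95). The gene 4930544D05Rik lies across Chrne on the opposite strand but shares 0 exon bases with it.

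Chrnd (ENSMUSG00000026251, chromosome 1, 87190607 to 87200070, plus strand) encodes the delta subunit. It was listed at 1.14 to 1.45 FPKM in NTV, 0.80 to 1.28 in TV and 1.01 to 1.92 in TL, on 44 to 99 reads per library. The groups overlapped, and the difference in TV against NTV was -0.18 (95% interval -0.52 to 0.15).

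Chrng (ENSMUSG00000026253, chromosome 1, 87204657 to 87212694, plus strand), which lies next to Chrnd, encodes the fetal gamma subunit that is normally silent in innervated adult muscle. It was under the filter with a mean of 0.13 FPKM. The NTV libraries had 3, 1, 5 and 67 reads, the TV libraries 1, 0, 1 and 0, and the TL libraries 10, 9, 14 and 3, in the order of their replicate numbers. NTV replicate 6, at 0.95 FPKM, held most of the NTV reads. TL replicates 1, 4 and 5 held more reads than any TV library. For TV replicates 4 and 8, a count of 0 allows up to 3 reads, or 0.040 and 0.052 FPKM, which covers counting error only; TL replicate 7, at 0.031 FPKM, lies under both limits and cannot be placed above these libraries. In a fit with no filter Chrng was not called in any comparison (limma, adjusted p 0.391 and 0.834 for TV and TL against NTV, and 0.736 for TL against TV).

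Musk (ENSMUSG00000057280, chromosome 4, 58285960 to 58374303, plus strand) encodes the agrin-responsive kinase that starts receptor clustering. It stood at 5.35, 3.69, 4.42 and 5.29 FPKM in the NTV libraries. In TV it stood at 12.1 and 13.3 FPKM in replicates 3 and 4 but at 4.43 and 5.94 in replicates 6 and 8. TL held 4.44, 7.87, 3.17 and 5.65 FPKM. The TV libraries thus fell into a high pair and a pair within or near the NTV range, and the groups overlapped. The difference of 0.74 ± 0.33 in TV against NTV did not pass (adjusted p = 0.116), and it did pass without TV replicate 6 (1.01, adjusted p = 0.0325; range over all alternatives 0.0325 to 0.419). TL and TV differed by -0.64 (95% interval -1.36 to 0.078).

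Dok7 (ENSMUSG00000044716, chromosome 5, 35056766 to 35087839, plus strand) encodes the adaptor that activates MuSK from inside the fibre. It stood at 5.6, 5.65, 4.7 and 4.15 FPKM in NTV, at 5.64, 3.49, 4.84 and 5.68 in TV, and at 10.4, 5.4, 6.03 and 6.5 in TL. TL replicate 1 was the highest of the 12 libraries. The difference was 0.47 ± 0.20 in TL against TV (unadjusted p = 0.0356, adjusted p = 0.277) and -0.041 in TV against NTV (95% interval -0.47 to 0.39).

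Ache (ENSMUSG00000023328, chromosome 5, 137287519 to 137294466, plus strand) encodes acetylcholinesterase itself. It ranged from 6.2 to 7.38 FPKM in NTV, from 4.11 to 9.04 in TV and from 5.94 to 10.3 in TL, and the groups overlapped. The differences were 0.052 in TV against NTV (95% interval -0.42 to 0.53), 0.099 in TL against TV (-0.38 to 0.57) and 0.15 in TL against NTV (-0.32 to 0.63). Gm42456 shares 98 exon bases with Ache on the opposite strand and had at most 5 reads in a library.

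Colq (ENSMUSG00000057606, chromosome 14, 31523082 to 31591343, minus strand) encodes the collagen tail that holds the enzyme in the synaptic cleft. It stood at 3.5, 5.72, 3.37 and 2.98 FPKM in NTV, at 2.34, 2.41, 2.89 and 3.2 in TV and at 2.06, 2.75, 3.11 and 2.95 in TL. Of the 8 TV and TL values 6 lay under the lowest NTV value, and the groups overlapped. Gm49387 shares 199 exon bases with Colq on the same strand and was listed at 0. The difference was -0.42 ± 0.18 in TV against NTV (unadjusted p = 0.0346, adjusted p = 0.0986), -0.0010 in TL against TV (95% interval -0.39 to 0.39) and -0.42 ± 0.18 in TL against NTV (adjusted p = 0.145).

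Prima1 (ENSMUSG00000041669, chromosome 12, 103196908 to 103242150, minus strand) encodes PRiMA, the membrane anchor of acetylcholinesterase. Prima1 had the largest log2 change of the 9 tested members in each comparison with NTV. Without NTV replicate 6, alone or together with TL replicate 4, the change of Chrna1 in TV against NTV was larger than that of Prima1 (1.05 against 0.91). It stood at 2.75, 4.52, 1.98 and 1.31 FPKM in NTV replicates 2, 3, 5 and 6, on 28 to 95 reads per library. It stood at 4.06, 5.49, 7.2 and 7.82 FPKM in TV replicates 3, 4, 6 and 8. It stood at 15.3, 15.6, 13.9 and 23.6 FPKM in TL replicates 1, 4, 5 and 7. TV overlapped NTV only through TV replicate 3 and NTV replicate 3, and every TL library lay above every other library.

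Prima1 rose from 2.64 ± 1.38 FPKM in NTV to 6.14 ± 1.7 in TV, a log2 change of 1.14 ± 0.29 (limma, adjusted p = 0.0157). The call ended without the libraries with Ucp1 above 2 FPKM (1.06, adjusted p = 0.0621) and without NTV replicate 6 and TL replicate 4 (0.91, adjusted p = 0.0506). In TL it reached 17.1 ± 4.39 FPKM, higher than NTV by 2.56 ± 0.29 (adjusted p = 0.00191), and this call held with any 1 library left out (2.33 to 2.82). TL and TV did not overlap, as for 7.42% of all tested genes, and differed by 1.41 ± 0.29 with a 95% interval from 0.77 to 2.049 (unadjusted p = 0.000423). That difference did not pass the adjustment over all genes (adjusted p = 0.0642). It passed with a pseudocount of 1 (0.0481), with voom on recovered reads (0.0185), without NTV replicate 3 (0.0394) or 6 (0.044) and without NTV replicate 6 and TL replicate 4 (0.0478), and not in the other alternatives (up to 0.819).

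The FPKM ratio of Prima1 to Colq, the genes of the membrane anchor and the synaptic tail of the same enzyme, was 0.44 to 0.79 in the NTV libraries, 1.73 to 2.49 in TV and 4.45 to 8 in TL, so that the groups did not overlap. The ratio of Prima1 to Ache was 0.19 to 0.71 in NTV, 0.77 to 0.99 in TV and 1.52 to 3.47 in TL. The ratio of Chrna1 to Chrne was 0.42 to 0.73 in NTV, 0.78 to 2 in TV and 0.55 to 2.35 in TL, with TL overlapping both other groups. The ratio of Chrnb1 to Chrne was 1.41 to 2.69 in NTV, 2.41 to 7.78 in TV and 1.47 to 3.53 in TL, so that all groups overlapped. These ratios describe the members' values a second way and were not tested. How often the ratios of other gene pairs separate the groups was not counted.

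**Figure D4:**
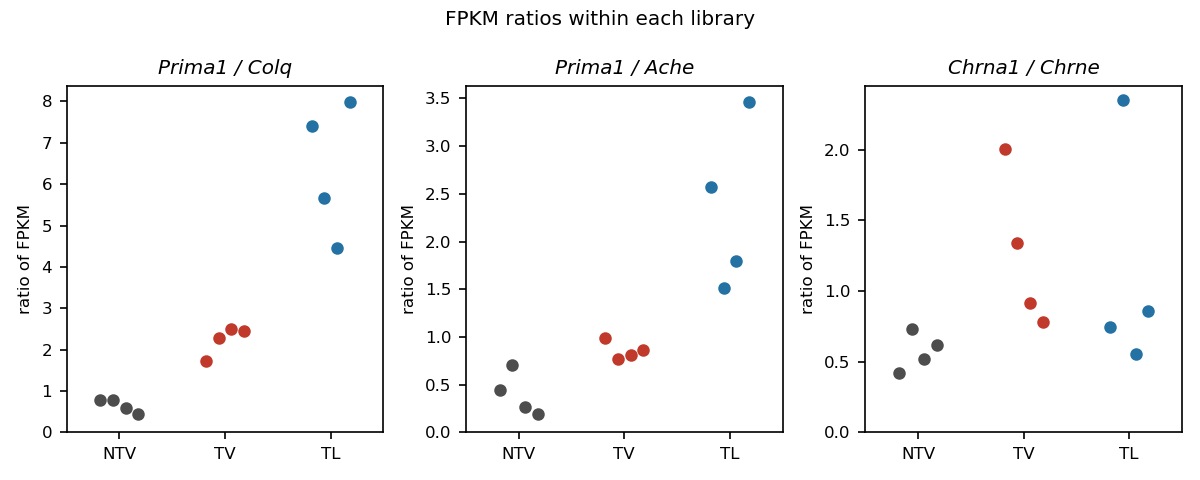
FPKM ratios within each library for Prima1 to Colq, Prima1 to Ache and Chrna1 to Chrne, 1 point per library. The Prima1 ratios of the 4 TL libraries lie above those of all other libraries, and for Chrna1 to Chrne the TL ratios overlap those of TV and NTV, which do not overlap each other.

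By pattern over the 12 libraries, the protein-coding genes most like Chrnb1 among 10941 were Tnrc6c (Pearson r = 0.98), Cwc22 (0.97) and Keap1 (0.96), and the closest other member was Chrna1 (0.83). Those most like Prima1 were Klhl11 (0.95), Epb41 (0.95) and Ankrd9 (0.92), and the closest member was Chrnb1 (0.62). The correlations are across libraries that share the 3 group means, and they are descriptions only.

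Of 21 tested genes of the agrin and MuSK pathway and the postsynaptic scaffold, 1 rose and 3 fell in TV against NTV, 0 were called in TL against TV by limma (4 at an unadjusted p under 0.05), and 2 rose and 4 fell in TL against NTV. Of all tested genes, 25.2%, 0.517% and 8.81% were called in these comparisons, so that in TV against NTV the list had 4 of 21 called where the share of all genes was larger. Its median log2 change was -0.0047, -0.035 and -0.029. Sntb1, a syntrophin of the dystrophin complex, rose from 3.84 ± 0.633 FPKM in NTV to 7.66 ± 1.82 in TV (0.90 ± 0.17, adjusted p = 0.00464) and 9.53 ± 1.55 in TL (1.21 ± 0.17). The falls in both comparisons with NTV were those of Hspg2, which encodes the basal lamina proteoglycan perlecan to which ColQ binds (-0.68 ± 0.14 in TV and -0.72 ± 0.14 in TL), of the basement membrane gene Nid2 (-0.96 ± 0.20 and -1.07 ± 0.20) and of the cytoskeletal linker gene Macf1 (-0.48 ± 0.10 and -0.51 ± 0.10). Lamb2, the gene of the laminin chain found at the synaptic basal lamina, stood at 43.8 ± 5.03 FPKM in NTV and 28.8 ± 3.73 in TL (-0.60, adjusted p = 0.0436), a call that was lost with any 1 NTV or TL library or TV replicate 4 or 6 left out (up to 0.118) and with equal totals (0.0694). In all the Lamb2 call was lost in 15 of 26 alternatives. With libraries scaled to an equal total, the calls of Hspg2 and Macf1 in TL against NTV ended (adjusted p = 0.065 and 0.0885), and without NTV replicate 6 and TL replicate 4 those of Nid2 and Macf1 did (0.0759 and 0.0646).

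The core organizers of the list, picked after their values were seen, were not called. Agrn, the gene of agrin, stood at 3.74 ± 0.456 FPKM in NTV, 3.67 ± 0.662 in TV and 3.67 ± 0.193 in TL. Lrp4, the agrin receptor gene, stood at 1.73 ± 0.145, 1.48 ± 0.506 and 1.63 ± 0.277 FPKM. Rapsn, the gene of rapsyn, stood at 19.3 ± 1.46, 24.3 ± 2.6 and 19.0 ± 2.42 FPKM, with a difference of 0.32 ± 0.11 in TV against NTV (adjusted p = 0.0504; 0.0337 to 0.518 over the alternatives, passing in 6 of them) and -0.35 ± 0.11 in TL against TV (adjusted p = 0.168). Markers of tenocytes, the tendon cells, summed to 61.2 to 115 FPKM in NTV, 17.1 to 41.1 in TV and 18.6 to 43.7 in TL, with 4 of 5 tested lower in TV and 3 in TL against NTV. Fmod and Thbs4 made up most of these sums in NTV. The fifth, Scx, went the other way, from 4.89 ± 1.78 FPKM in NTV to 11.2 ± 3.67 in TV (1.12 ± 0.38, adjusted p = 0.0505) and 9.86 ± 5.08 in TL (adjusted p = 0.181). All tested genes were called at shares of 25.2% in TV and 8.81% in TL against NTV. Markers of fibro-adipogenic progenitors, connective tissue cells of muscle, summed to 87.6 to 111, 48.5 to 72.9 and 36.5 to 76.2 FPKM, with 3 of 5 lower in TV and 2 in TL against NTV. Those lower were Cd34, Dpt and Serpinf1 in TV, and Cd34 and Serpinf1 in TL. In TV against NTV Pdgfra (-0.16, limma, adjusted p = 0.47) and Dcn (-0.21, adjusted p = 0.499) were not called. Dcn had the highest level of the 5, at 49.7 FPKM in NTV and 43.3 in TV. The part of tenocytes and of these progenitors in the matrix gene changes was not tested. In whole muscle, fewer cells of a type and less RNA per cell cannot be told apart.

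Of 6 tested genes of neuregulin signalling and synaptic transcription, only the ETS factor gene Etv4 was called, lower in TV against NTV (-0.61 ± 0.18, adjusted p = 0.0278), where 25.2% of all tested genes were called. The Etv4 call was lost when TV replicate 3, TV replicate 4, NTV replicate 5 or NTV replicate 6 was dropped, and with no filter (up to 0.0755 with 1 library left out). In all it was lost in 8 of 25 alternatives. Of 9 genes of receptor assembly and glycosylation, 2 rose and 2 fell in TV against NTV, where 25.2% of all tested genes were called. Ric3, a chaperone gene of nicotinic receptors, rose from 0.635 ± 0.178 to 1.2 ± 0.0869 FPKM (0.59 ± 0.14, adjusted p = 0.0105), and Tor1aip1, an inner nuclear membrane gene, rose by 0.67 ± 0.14. Alg14 and Gmppb, enzymes of glycan synthesis whose loss causes congenital myasthenia, fell (-0.69 ± 0.10 and -0.66 ± 0.12). In TL against NTV Alg14 alone of the 9 was called (-0.58 ± 0.10, adjusted p = 0.00696), where 8.81% of all tested genes were called. With libraries scaled to an equal total its adjusted p was 0.051.

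Of 9 tested genes that respond to denervation or regulate receptor genes, 3 rose and 0 fell in TV against NTV, 1 rose in TL against TV, and 3 rose and 1 fell in TL against NTV, with medians of 0.26, 0.042 and 0.48. Of all tested genes, 25.2%, 0.517% and 8.81% were called in these comparisons, and 13.8%, 0.235% and 4.19% as higher. Myog, which encodes myogenin, a direct activator of receptor genes, stood at 11.5 ± 1.81 FPKM in NTV, 24.2 ± 11 in TV and 30.4 ± 12.8 in TL (0.95 ± 0.31, adjusted p = 0.041, and 1.28 ± 0.31, adjusted p = 0.0267, against NTV). Its highest values were 47.2 FPKM in TL replicate 4, the library with the highest Chrna1 and Chrnb1, and 40.2 in TV replicate 3. In TV replicate 3 Chrnb1 was the highest of TV (43.3 FPKM), while Chrna1, at 11.1 FPKM, was the lowest of TV but close to the next values of 11.4 and 11.5. TL replicate 7 had 33.2 FPKM of Myog beside 10.9 of Chrna1 and 40.4 of Chrnb1. A link between Myog and the receptor genes was not tested. Myf6 rose in TV against NTV from 63.6 ± 9.09 to 143 ± 53.6 FPKM (1.09 ± 0.28, adjusted p = 0.0148). Gadd45a, a stress gene induced by denervation, rose by 0.80 ± 0.26 in TV (adjusted p = 0.0429) and 0.96 ± 0.26 in TL (adjusted p = 0.0433) against NTV.

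Myod1, another myogenic factor gene, was the only gene of these junction lists called in TL against TV. It stood at 11.6 ± 4.96 FPKM in NTV, 11.7 ± 4.2 in TV and 37.2 ± 3.45 in TL (1.69 ± 0.28 in TL against TV, adjusted p = 0.0233), with every TL library above every other. The call in TL against TV ended without TV replicate 3 or 4 or TL replicate 1, 5 or 7 (up to 0.0855), with no filter (0.0671), with only the compared groups (0.0621), and with the 3 Ucp1-bearing libraries (0.337) or TL replicates 1 and 5 (0.339) left out. Against NTV, Myod1 was higher in TL by 1.73 ± 0.28 (adjusted p = 0.006; 0.0508 without the libraries with Ucp1 above 2 FPKM). The calls of Myog ended in TV against NTV without any 1 of the 4 NTV libraries, TV replicate 3 or 6 or TL replicate 7 (up to 0.103), and in TL against NTV without NTV replicate 2, 5 or 6 or TL replicate 4 or 7 (up to 0.0722). Over all 26 alternatives the calls of Myog were lost in 11 and 8. Those of Gadd45a ended in TV against NTV without any 1 TV library, TL replicate 7 or NTV replicate 2, 3 or 5 (up to 0.111), and in TL against NTV without NTV replicate 2, 3 or 5, any 1 TV library or TL replicate 4, 5 or 7 (up to 0.12). Over all 26 alternatives the calls of Gadd45a were lost in 11 and 14. Hdac9, a repressor of receptor gene transcription, was lower in TL than in NTV (-0.84 ± 0.22, adjusted p = 0.0344). That call ended with 1 of the 4 NTV libraries or TL replicate 1, 4 or 7 left out (up to 0.0982), and in 12 of 25 alternatives in all.

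Of the other denervation genes, Ncam1, which spreads along denervated fibres, differed by -0.017 ± 0.19 in TV against NTV (adjusted p = 0.959), and Runx1 and Dach2 were under the filter. Runx1 reached 1.04 FPKM in TV replicate 3 and 1.14 in TL replicate 4 and was at most 0.6 elsewhere. Of a list of 17 genes, the other acetylcholine receptors and Bche, the butyrylcholinesterase gene, 3 were tested, and Chrna3, Chrna6, Chrnb3, Chrnb4 and Chrm5 had no read in any library. Chrna10 was lower in TL than in NTV (0.993 ± 0.293 against 2.84 ± 1.21 FPKM, adjusted p = 0.0303), where 8.81% of all tested genes were called. The call was lost on leaving out 1 of NTV replicates 3, 5 and 6 and TL replicates 4, 5 and 7 (up to 0.0841). In all it was lost in 12 of 26 alternatives. Chrna9 was not called but spread widely, from 0.41 to 1.61 FPKM in NTV, 2.98 to 9.46 in TV and 0.73 to 14.5 in TL, with its highest value in TL replicate 4.

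**Figure D5:**
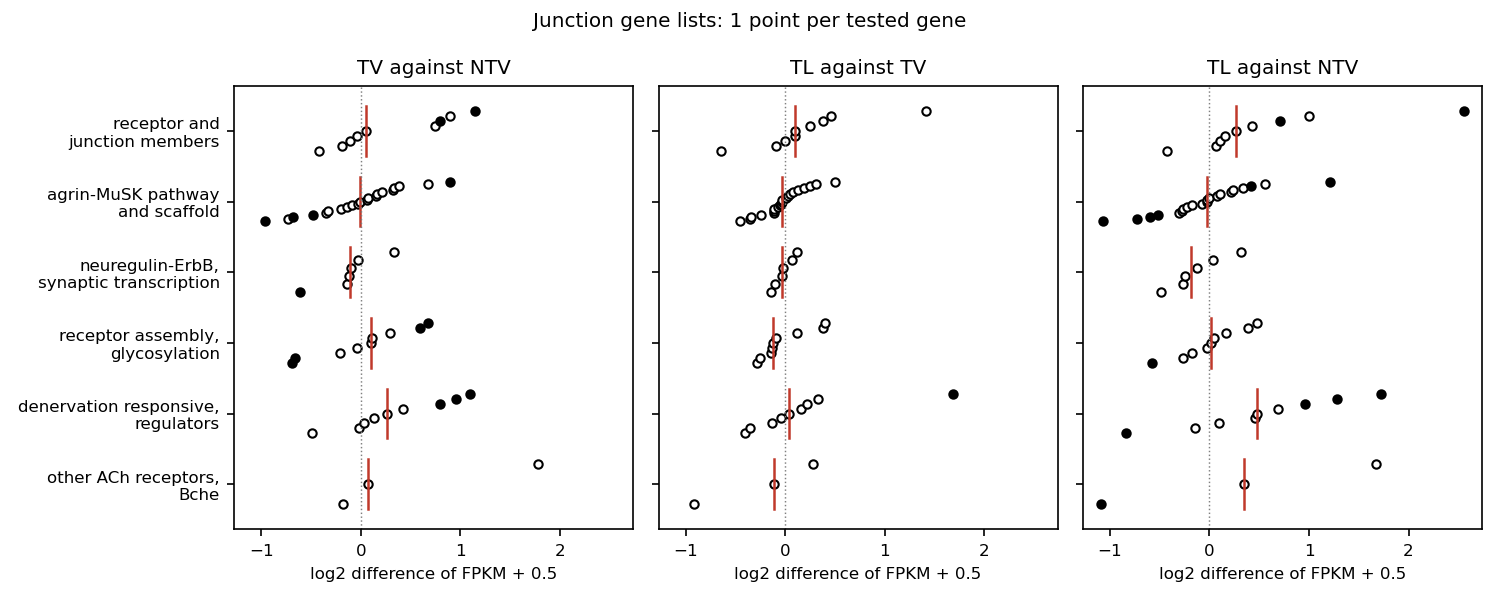
log2 difference of FPKM + 0.5 for each tested gene of the junction gene lists in the 3 comparisons, filled where the adjusted p was under 0.05, with the list median as a red bar. Filled points lie on both sides of 0 in the scaffold list, and Myod1 is the only filled point in TL against TV.

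Markers of other cell types were read beside these results. Of all tested genes, 25.2% were called in TV against NTV, 0.517% in TL against TV and 8.81% in TL against NTV, and the marker counts below stand beside these shares. Of 9 Schwann cell markers, S100b alone was called, lower in TV against NTV (-1.06 ± 0.33, adjusted p = 0.0366). The call ended on dropping TV replicate 3, 4 or 6, or else NTV replicate 2, 5 or 6 (up to 0.0978), and in 11 of 26 alternatives in all. The summed level of the Schwann cell markers ranged from 27.5 to 103 FPKM in NTV, 35.6 to 69.9 in TV and 28.1 to 73.2 in TL. Of 4 tested satellite cell markers, only Cdh15, which fibres also express, was called, higher in TV against NTV (1.16 ± 0.24). With Calcr, which was under the filter, the 5 markers summed to 15.7 to 25.8 FPKM in NTV, 31.4 to 49.4 in TV and 20.04 to 39.4 in TL. Sdc4 and Cdh15 made up most of these sums. Pax7 stood at 0.518 FPKM in NTV and 0.437 in TV (-0.12, limma, adjusted p = 0.683). Myf5 stood at 0.866 and 1.04 FPKM (0.16, adjusted p = 0.624). The slow fibre markers summed to 426 to 1128 FPKM in NTV, 177 to 1850 in TV and 871 to 1488 in TL, with 0 of 7 called (limma, 0 at an unadjusted p under 0.05) in each comparison. Adipocyte markers summed to 7.47 to 96.2, 22.6 to 87.6 and 16.4 to 212 FPKM. The part of these cell types in the members' changes was not tested.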

How the data were processed

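Muscle RNA of 12 mice was analysed. Per the labels' protocols, mRNA was selected with oligo-dT beads and primed at random. Whether counting used strand is not given in the sources used here. mm10, DESeq2, featureCounts 1.5.0-p3 and HISAT2 2.05 are listed, without roles, per the submitters' processing notes. A single table of FPKM was deposited by the authors; gene length in bases, another kind of value that the authors deposited in it, served to recover reads. In every library 100% of genes gave whole reads within 0.1 read, and the scale between libraries equalled median-of-ratios size factors, which assumes that most genes do not differ. Gene positions are those of the table; all 10 members had the same coordinates in GENCODE M21.

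Differences were tested with limma 3.58.1 (R 4.3.3) on log2 values after adding 0.5 to each FPKM, in a group-means model of all 12 libraries with trended variances. Benjamini-Hochberg adjustment ran over the 12754 genes whose mean reached 0.5 FPKM; the constant understates changes of low genes. The series text states biological replicates. Members, lists and tests were chosen with earlier results of these data known. All members are named; of each other list, up to 4 called genes per comparison are named by size, and for called members the 3 most correlated genes. Agrn, Lrp4, Rapsn, Ncam1, Runx1, Dach2 and Chrna9, and the markers named, were picked after their values were seen. The test was tried on simulated data first. Alternatives were other pseudocounts, filters, scalings, variance models and groups in the fit, voom on recovered reads, replicate number entered as a block, and single libraries left out in turn; 3 that leave out several libraries were added after the data were seen. Sequences are from RefSeq. Figures used Python 3.11.15 and matplotlib 3.10.9.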

Additional observations from a re-analysis of the deposited data

Results flagged for a closer look

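Of 30 sets of 4 libraries (10 members in 3 groups), 3 held a library whose distance from the nearest of the others exceeded Dixon's 95% limit as a share of the whole range; chance gives about 1 in 20. Chrna1 stood at 34.4 FPKM in TL replicate 4, where the next TL library had 10.9. Chrna1 stood at 14.6 FPKM in TV replicate 4, next to 11.5. Chrng stood at 0.946 FPKM (67 reads) in NTV replicate 6, next to 0.0595. Myog and Runx1 were also highest in TL replicate 4, at 47.2 and 1.14 FPKM; Myog and Runx1 in NTV replicate 6 were 12.9 and 0.49 FPKM.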

How the results depend on the processing

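Over 26 alternatives per comparison, 637 of 702 pairs of a member and an alternative kept direction and side of the threshold, 20 lost a call, 11 gained one and 34 turned sign. Of members called in TV against NTV there were 2, with 2 to 3 when 1 library was left out, 3 with only the compared groups (Chrna1 added) and 1 when the 3 libraries holding Ucp1 above 2 FPKM were dropped. In TL against TV there were 0, with 0 to 1 when 1 library was left out, and 1 with a pseudocount of 1, with voom, or without NTV replicate 6 and TL replicate 4. In TL against NTV there were 2, with 1 to 2 when 1 library was left out, 3 without TL replicates 1 and 5 (Chrna1 added), and 1 with no filter, with equal totals or with only the compared groups. The cause was not tested.

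With the replicate block, 0 members and 0 of all genes were called in each of the 3 comparisons (TL against TV and both against NTV). A term for each replicate number leaves little of the 12 libraries to estimate spread from. These 0 calls therefore say little, although they count among the lost calls above. Only 4 pairs share a number (r from 0.014 to 0.13), too few to show whether the numbers pair the samples, and no pairing is stated. All-gene calls were 3217, 66 and 1123 (2233 to 3437, 7 to 280 and 514 to 1287 with 1 library left out). In TL against TV they were 19 with no filter, 8 with only the compared groups, 0 without the Ucp1 libraries, 4 without TL replicates 1 and 5, and 144 without NTV replicate 6 and TL replicate 4; in TL against NTV 742 with no filter, 711 without the Ucp1 libraries and 194 without NTV replicate 6 and TL replicate 4. With equal totals they were 40 (75% higher, 45.5% in the reported fit) and 726 (62.9% higher, 47.6%), and the median of all genes shifted by 0.11 in TL against NTV.

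No difference that turned sign was called. In TV against NTV these were Chrne (0.0029 without NTV replicate 6 and TL replicate 4), Ache (-0.19 with the block), Dok7 (0.010 with equal totals, 0.032 with the block) and Agrn (0.016 with equal totals, 0.030 without the Ucp1 libraries). In TL against TV they were Chrna1 (-0.36) and Ache (-0.041) without NTV replicate 6 and TL replicate 4, Chrnb1 (0.097 with the block, 0.30 without the Ucp1 libraries or TL replicates 1 and 5), Colq (0.066 with equal totals, 0.29 with the block, 0.021 with voom, 0.067 without the Ucp1 libraries or TL replicates 1 and 5) and Agrn (-0.0022 with quantile normalization, -0.0082 with the block). In TL against NTV they were Chrnd (-0.12 without the Ucp1 libraries, -0.14 without TL replicates 1 and 5), Musk (-0.27 with the block, -0.038 without NTV replicate 6 and TL replicate 4), Agrn (0.097 with equal totals, 0.031 without the Ucp1 libraries), and, with equal totals, the block, without the Ucp1 libraries and without TL replicates 1 and 5, Lrp4 (0.033, 0.039, 0.091, 0.089) and Rapsn (0.10, 0.014, 0.041, 0.095). With 1 library left out the ranges were Chrne -0.27 to 0.17, Ache -0.064 to 0.29, Dok7 -0.12 to 0.098, Agrn -0.11 to 0.046 in TV against NTV, Chrna1 -0.36 to 0.30, Chrnb1 -0.28 to 0.097, Ache -0.13 to 0.22, Colq -0.061 to 0.10, Agrn -0.067 to 0.087 in TL against TV, and Chrnd -0.043 to 0.18, Musk -0.095 to 0.30, Agrn -0.085 to 0.041, Rapsn -0.11 to 0.031 in TL against NTV. Depth limits Chrng (0 to 67 reads), Chrnd (44 to 99 reads) and the NTV level of Prima1 (28 to 95 reads). Prima1 had 123 to 151 reads in TV and 273 to 685 in TL.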
